A study of Mus musculus with 4 samples.

Results

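The SLC25 family comprises carrier proteins, most of which move nucleotides, metabolites, amino acids, cofactors and ions across the inner mitochondrial membrane. Its genes were examined in differentiating mouse C2C12 cells depleted of the histone demethylase LSD1. Members were taken as every gene with the symbol Slc25a followed by a number and at least 1 array probe set assigned to that gene alone, which gave 44 genes of 18193 measured in all. Each gene was represented by 1 probe set, the brightest with probe sets whose design may bind other transcripts (suffix _x_at) used only where no other existed. No other suffix was screened, and the probe sets chosen for Slc25a26, Slc25a47 and the LSD1 gene Kdm1a end in _s_at. C2C12 is an immortalised mouse myoblast line that forms myotubes when serum is lowered. The cells carried a stably selected plasmid, under hygromycin during growth, for a short hairpin RNA against LSD1 (shLSD1, 2 arrays) or for a non-targeting hairpin (shControl, 2 arrays), and total RNA was taken 48 hours after the change to 2% horse serum in medium with 25 mM glucose. Both groups went through the same selection and differentiation. The labels name 1 hairpin plasmid per group and do not say whether a selected population was a clone or a pool, so selection and knockdown cannot be told apart. They also do not say that the 2 arrays of a group came from separate cultures, so p-values measure only how far these arrays spread, and that spread may be technical.

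Carriers of this family share a fold of repeated helix pairs and open alternately to the intermembrane space and the matrix. The ADP/ATP and phosphate carriers feed ATP synthase, the aspartate/glutamate and oxoglutarate carriers run the malate-aspartate shuttle, and the mitoferrins bring in iron for haem and iron-sulphur clusters. In skeletal muscle the family is best known for Slc25a4, the ADP/ATP carrier form of heart and muscle, beside Slc25a5, the form of proliferating cells.

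Kdm1a, which encodes LSD1, had signals of 922 and 1034 on the shLSD1 arrays, against 4603 and 4588 on the shControl arrays. The log2 difference of -2.23 had a standard error (SE) of 0.07 with 2 arrays in each group, and the limma p after Benjamini-Hochberg adjustment was 2.89e-05. The values are MAS5 signals, arbitrary units of brightness per probe set with a common trimmed mean on all arrays and an array median of 67.7 to 69.7 in shLSD1 and 67.3 to 67.9 in shControl. Of 8 skeletal muscle markers, 6 fell and 0 rose, with a median log2 fold change of -0.49, where 7.09% of all tested genes were called lower. Myog, the terminal differentiation factor, fell by 0.61, Ckm, the muscle creatine kinase, by 0.86, Tnnt1 by 0.67, Myh3 by 0.64, Acta1 by 0.37 and Mylpf by 0.27, while Myod1 measured -0.17 and Des -0.09. With no intensity trend in the variance the limma adjusted p was 0.0511 for Myog, 0.0610 for Ckm, 0.137 for Mylpf and 0.0856 for Acta1, so these 4 calls were lost. Mylpf and Acta1 also lost theirs without shControl replicate 1 (limma adjusted p = 0.183 for Mylpf and 0.0966 for Acta1) and without shControl replicate 2 (0.138 for Mylpf and 0.0550 for Acta1). Of 12 measured markers of adipocytes, bone-forming, blood and endothelial cells, 11 lay under the signal filter given below, and their summed signal was 213 to 285 in shLSD1 and 137 to 171 in shControl. Much of the difference in the sums lay in the endothelial marker Tek, at 66.9 and 109 in shLSD1 against 27.8 and 26.4 in shControl. The other markers under the filter went in both directions. The part of these cell types, and of the lower muscle markers, in the carrier results was not tested. The other marker, Sp7, measured -0.36 (limma adjusted p = 0.545).

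Among the carrier genes 1 passed the test. A gene was tested if its mean log2 signal exceeded 6.03 (a signal of 65.4), the median over all probe sets, and 35 of the 44 members passed this filter. Of these 35, 1 rose and 0 fell at a limma adjusted p under 0.05, while 15.8% of all 10879 tested genes were called, 8.75% as higher and 7.09% as lower. The 1 that rose was Slc25a30. An unadjusted limma p under 0.05 was reached by 4 members (Slc25a30, Slc25a27, Slc25a12 and Slc25a39, all with positive log2 fold changes), and by 3369 of the 10879 tested genes. The median log2 fold change was 0.05 over the members and 0.0036 over all tested genes. The groups did not overlap for 15 members, with shLSD1 higher for 12 and lower for 3, where 60.1% of all tested genes did not overlap, 30.7% with shLSD1 higher and 29.4% with shLSD1 lower.

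**Figure D1:**
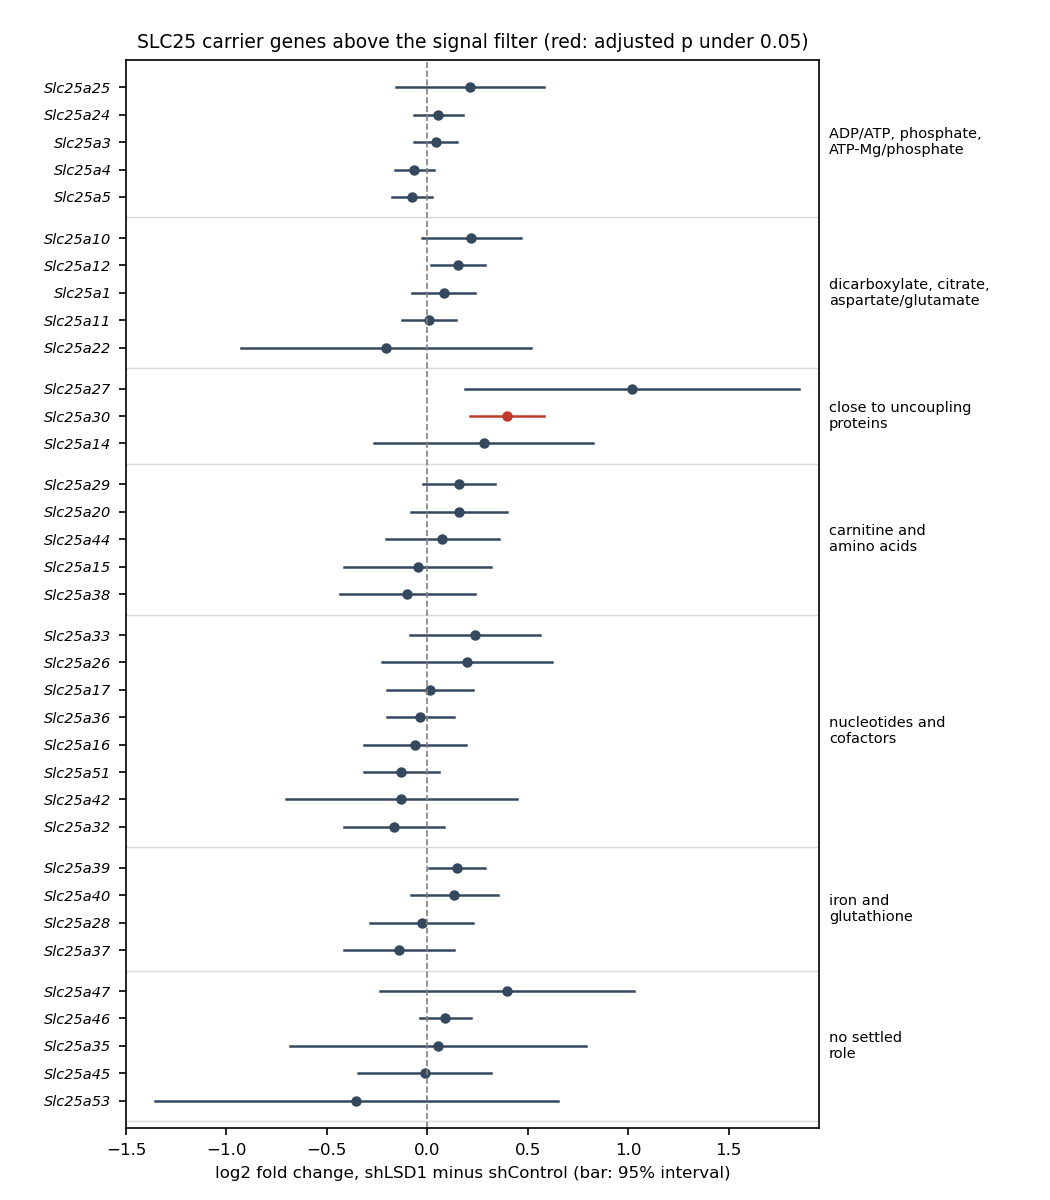
Log2 fold change (shLSD1 minus shControl, horizontal axis) of the 35 carrier genes above the signal filter, grouped by transported substrate, with points for the estimate and bars for the 95% interval from limma (n = 2 and 2 arrays). Slc25a30, in red, is the only member past an adjusted p of 0.05, and Slc25a27 has the highest estimate, 1.02, with an interval of 0.19 to 1.85.

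The median size of the log2 fold change, taken without its sign, was 0.13 over the 35 members and 0.15 over the other 10844 tested genes. Only Slc25a27 passed 0.5 in size, 2.86% of the members, while 11.0% of the other tested genes did so. For 24 of the 35 members the whole 95% interval lay within 0.5 on either side of 0 on the log2 scale, as it did for 61.9% of all tested genes. The precision followed the brightness of the probe set, in a fit whose variance was itself modelled with an intensity trend. Among the 19 members with a mean signal above 482, the upper quartile of all probe sets, the SE ran from 0.04 to 0.12 and 18 intervals lay within 0.5. Among the 16 dimmer ones the SE ran from 0.11 to 0.43 and 6 intervals did, so the intervals of the other 10 reached past that size.

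**Figure D2:**
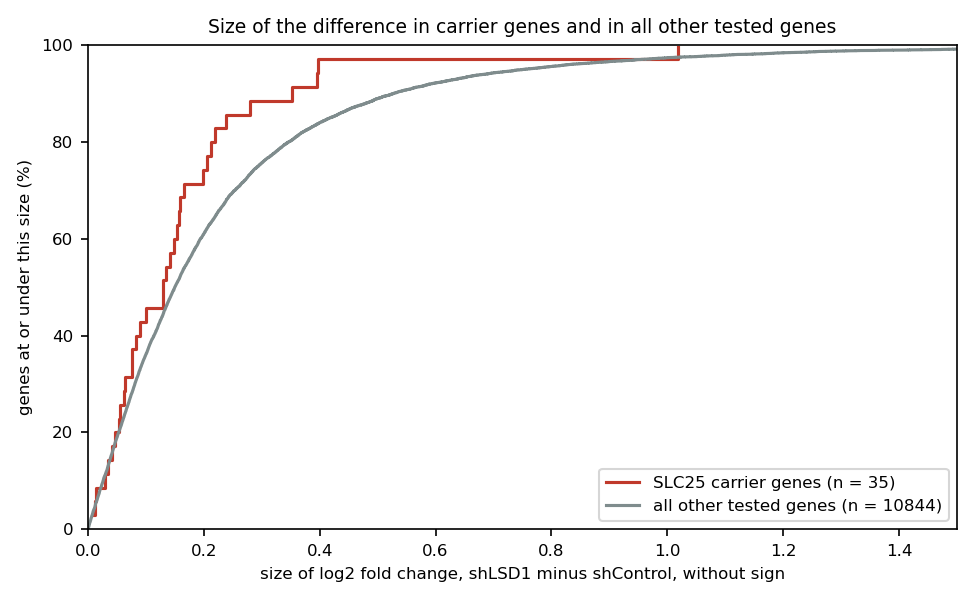
Cumulative share of genes (vertical axis, percent) at or under a given size of log2 fold change without sign (horizontal axis), for the 35 carrier genes and the other 10844 tested genes. The median size was 0.13 for the carriers and 0.15 for the others, and 1 carrier gene lies past 0.5; the axis ends at 1.5, past which there are 80 tested genes and 0 carriers.

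Of the 3 carriers close in sequence to the uncoupling proteins 1 rose, where 8.75% of all tested genes were called higher. Slc25a30, the kidney mitochondrial carrier protein, had signals of 1831 and 1625 in shLSD1, against 1349 and 1276 in shControl. Both shLSD1 arrays lay above both shControl arrays, with means of 1728 ± 146 and 1312 ± 51.5 (SD, n = 2 each). Slc25a30 rose by 0.39 on the log2 scale, or 1.31-fold (limma SE 0.08, 95% interval 0.21 to 0.58, adjusted p = 0.0144). Its call was lost without shControl replicate 1 (0.43, limma adjusted p = 0.0727), without shControl replicate 2 (0.35, limma adjusted p = 0.117) and when the variance was fitted with no intensity trend (limma adjusted p = 0.0895). Slc25a30 has 5 probe sets, and the 4 above the filter gave log2 fold changes of 0.32 to 0.64, 3 of them past an adjusted p of 0.05 in a limma fit over all probe sets. In the platform annotation these 3 share a source sequence, so they are not separate readings of the gene. The remaining one above the filter (0.32, limma adjusted p = 0.274) has another source sequence, as has the fifth. The fifth was dim, with signals of 1.17 and 9.84 in shLSD1 and 20.8 and 10.7 in shControl. Averaging all 5 probe sets on the log2 scale turned the estimate to -0.09 (limma adjusted p = 0.793). Averaging the 4 above the filter, a choice made after the data had been seen, gave 0.42 (limma adjusted p = 0.0351).

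The promoter of Slc25a30 is shown because it is the one carrier gene that passed the test. The sequence is RefSeq's, build GRCm38.p6, chr14:75786988-75787287, minus strand, from 250 bases before the transcript start to 50 after it, 5′ to 3′. Capitals mark matches to CCAAT (the CCAAT box) and GGGCGG (the GC box), searched on both strands.
Slc25a30: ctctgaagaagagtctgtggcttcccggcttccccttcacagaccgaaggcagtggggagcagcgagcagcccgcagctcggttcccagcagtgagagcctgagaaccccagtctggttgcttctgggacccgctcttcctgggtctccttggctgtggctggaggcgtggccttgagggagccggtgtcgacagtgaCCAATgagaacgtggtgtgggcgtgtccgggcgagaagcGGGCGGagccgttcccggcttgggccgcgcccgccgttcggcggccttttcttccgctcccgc
The window held 1 CCAAT box and 1 GC box, which do not overlap each other. It held no match to CANNTG (the E-box, the letters read by myogenic helix-loop-helix factors) or to AAGGTCA (letters read by oestrogen-related receptors), also searched on both strands. Among all 32851 promoters of this length, CCAAT was present in 37.4%, GGGCGG in 35.7%, CANNTG in 72.3% and AAGGTCA in 4.72%. Promoters were given for 34 of the 44 members, 43 windows in all, of which 48.8% held CCAAT, 86.0% GGGCGG, 74.4% CANNTG and 2.33% AAGGTCA. A member with several windows counts once for each, and the 32851 promoters were not limited to genes tested here. Whether these shares are particular to the family was not tested. These matches describe letters in the window and not bound sites.

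Slc25a27, a brain carrier of the same branch, was measured near the filter. Its signals were 138 and 76.5 in shLSD1, against 54.0 and 47.8 in shControl. The shLSD1 arrays lay above the shControl arrays but differed widely between themselves, and both shControl signals were under the filter, so the gene was tested only because of its shLSD1 signals. The log2 fold change was 1.02 (limma SE 0.36, adjusted p = 0.0976), and the call depended on the arrays used. Without shLSD1 replicate 2 Slc25a27 measured 1.45 and passed (limma adjusted p = 0.0255), and without shLSD1 replicate 1 it measured 0.59 (limma adjusted p = 0.384). With the replicate number as a block its limma adjusted p was 0.0491. The other 3 probe sets of Slc25a27 lay under the filter, with log2 differences of 0.10, 0.95 and 1.46. Slc25a14, the third of the branch, had 383 and 316 in shLSD1 and 222 and 369 in shControl. Its groups overlapped, and the log2 fold change was 0.28 (limma SE 0.23, adjusted p = 0.469), which turned to -0.09 without shControl replicate 1. Of the uncoupling proteins themselves, which belong to the same family under other names, Ucp3, the muscle form, measured -0.09 (limma adjusted p = 0.870) and Ucp1, the heat-producing form of brown fat, stayed under the filter, at 1.81 and 32.4 in shLSD1 and 14.3 and 6.94 in shControl.

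**Figure D3:**
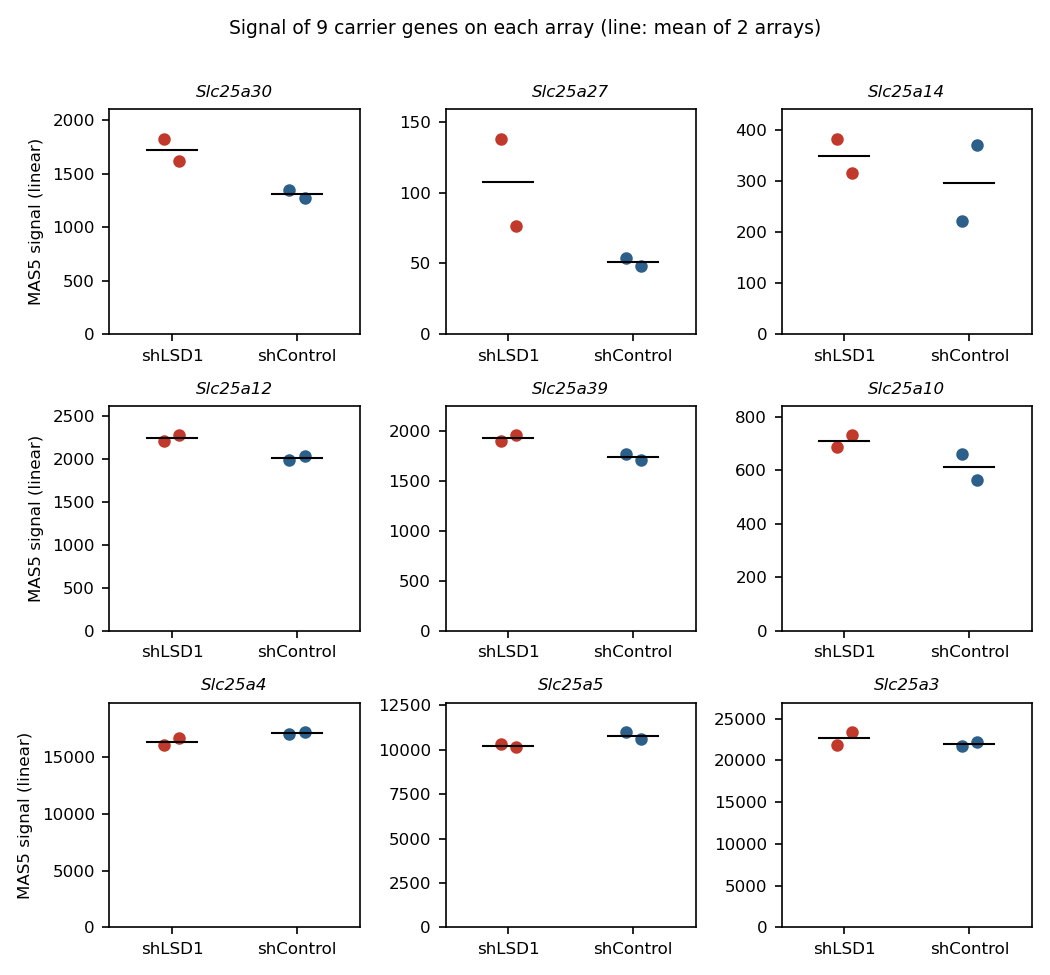
MAS5 signal on a linear scale starting at 0 (vertical axis) of 9 carrier genes on each of the 2 shLSD1 arrays (red, left) and 2 shControl arrays (blue, right), with a line at each group's mean. For Slc25a30 the shLSD1 arrays sit at 1831 and 1625 and the shControl arrays at 1349 and 1276, while for Slc25a14 and Slc25a3 the groups overlap.

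Among the carriers of ADP, ATP and phosphate, 0 of 5 tested members passed the test, and the median log2 fold change was 0.04. Over all tested genes, 15.8% were called, so a count of 0 in so small a group is near that share. Slc25a4 had signals of 16069 and 16643 in shLSD1, against 16997 and 17192 in shControl, a log2 fold change of -0.06 (limma SE 0.04, 95% interval -0.16 to 0.03, adjusted p = 0.335). Slc25a5 had 10306 and 10169 in shLSD1 and 10997 and 10586 in shControl, a log2 fold change of -0.08 (limma SE 0.04, 95% interval -0.18 to 0.03, adjusted p = 0.284). For both genes both shLSD1 arrays lay below both shControl arrays. Slc25a31, the ADP/ATP carrier of the testis, was dim, with 9.43 and 20.0 in shLSD1 and 3.08 and 0.93 in shControl.

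The phosphate carrier gene Slc25a3 had 21914 and 23407 in shLSD1 and 21752 and 22262 in shControl, with overlapping groups and a log2 fold change of 0.04 (limma SE 0.05, adjusted p = 0.588). The calcium-regulated carriers of ATP-Mg against phosphate adjust the matrix adenine nucleotide pool. Slc25a24 measured 7457 and 7250 in shLSD1 and 7337 and 6826 in shControl (log2 fold change 0.06, limma adjusted p = 0.523). Slc25a25 measured 222 and 257 in shLSD1 and 196 and 217 in shControl (log2 fold change 0.21, limma adjusted p = 0.410). Slc25a23 stayed under the filter, at 79.2 and 77.4 in shLSD1 and 23.1 and 52.4 in shControl, and Slc25a41 and Slc25a54 were at most 20.8 on any array.

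The probe sets of Slc25a4 did not move together. The chosen one and the _x_at probe set measured -0.06 and -0.02, whereas the third above the filter had 8022 and 7367 in shLSD1 against 6349 and 6028 in shControl, a log2 fold change of 0.31 (limma SE 0.06, adjusted p = 0.0110 over all probe sets). In contrast, all 8 probe sets of Slc25a5, most of them of the _x_at type, gave negative values, from -0.15 to -0.07. Of these, 0 passed the test, where 11.8% of all tested probe sets were called. Over the family, 18 members had more than 1 probe set above the filter, and for 12 of them all such probe sets had the same sign. The exceptions were Slc25a4, Slc25a10, Slc25a20, Slc25a26, Slc25a36 and Slc25a44.

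When each of the 72 member probe sets above the filter was tested on its own, 7 were called, all higher, and they belonged to Slc25a30, Slc25a39, Slc25a4 and Slc25a46. Over all probe sets with a single gene, 11.8% were called in that fit. Slc25a39 is needed for glutathione import. Its chosen probe set had 1898 and 1952 in shLSD1, against 1765 and 1710 in shControl, a log2 fold change of 0.15 (limma SE 0.06, adjusted p = 0.144). The groups did not overlap, and the other 3 probe sets above the filter, all of the _x_at type, gave 0.18 to 0.26, 2 of them called. The mean of its 4 probe sets above the filter was 0.20 (limma adjusted p = 0.0418), an average chosen after the data had been seen. Slc25a46, a relative in the outer membrane that acts in membrane dynamics, measured 4535 and 4882 in shLSD1 and 4422 and 4425 in shControl (log2 fold change 0.09, limma adjusted p = 0.313). Its other probe set had 4108 and 4696 in shLSD1 and 3460 and 3565 in shControl, a log2 fold change of 0.32 (limma SE 0.07, adjusted p = 0.0222 over all probe sets). Both probe sets of Slc25a46 have the same source sequence in the platform annotation.

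**Figure D4:**
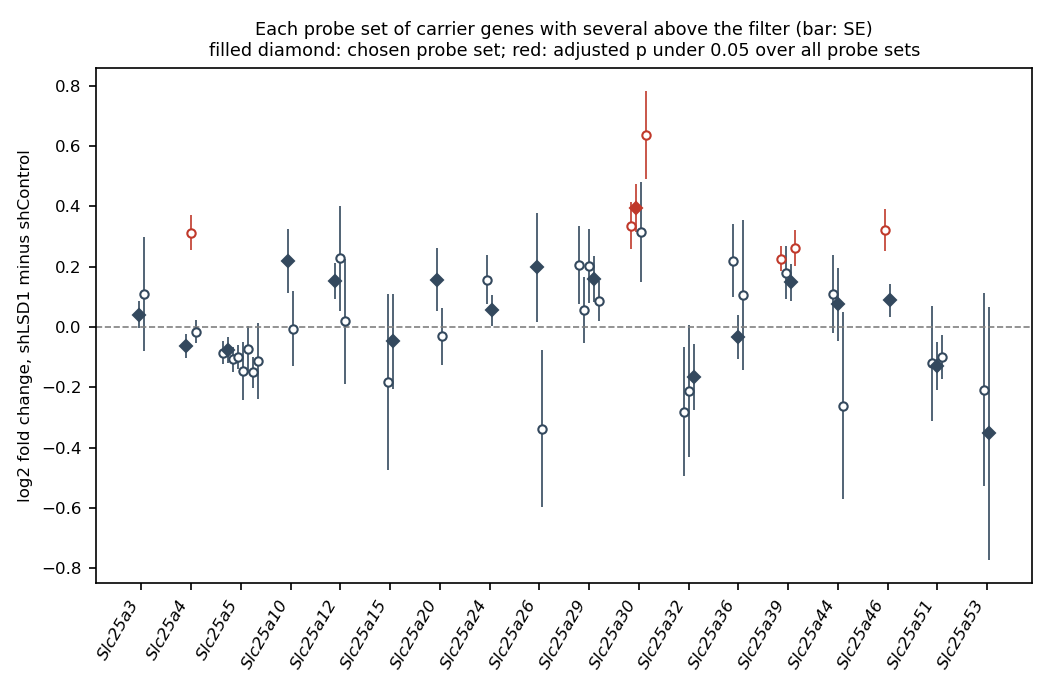
Log2 fold change (shLSD1 minus shControl, vertical axis) of every probe set above the filter for the 18 carrier genes that have more than 1, with bars for the SE from a limma fit over all probe sets (n = 2 and 2 arrays). The 7 called probe sets, in red, are 3 of Slc25a30, 2 of Slc25a39, 1 of Slc25a4 and 1 of Slc25a46, and filled diamonds mark the probe set chosen for each gene.

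Of the carriers of dicarboxylates, citrate, oxoglutarate, aspartate and glutamate, 0 of 5 tested members passed, with a median of 0.08. The share called over all tested genes was 15.8%. Slc25a12, the aspartate/glutamate carrier of muscle and brain, had 2206 and 2273 in shLSD1, against 1991 and 2037 in shControl. The groups did not overlap, and the log2 fold change was 0.15 (limma SE 0.06, adjusted p = 0.117). Its partner form Slc25a13, known from liver, was under the filter, with 52.8 and 34.8 in shLSD1 and 9.48 and 11.9 in shControl. Slc25a11, the oxoglutarate/malate carrier, measured 2294 and 2333 in shLSD1 and 2253 and 2345 in shControl, a log2 fold change of 0.01 with an interval of -0.12 to 0.14 (limma adjusted p = 0.934).

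The citrate carrier gene Slc25a1 had 1480 and 1402 in shLSD1 and 1347 and 1375 in shControl (log2 fold change 0.08, limma adjusted p = 0.456). Slc25a10, the dicarboxylate carrier, had 688 and 732 in shLSD1 and 661 and 563 in shControl (log2 fold change 0.22, limma adjusted p = 0.208), and its other probe set gave -0.01. The glutamate carriers gave imprecise values. Slc25a22 had 268 and 203 in shLSD1 and 380 and 189 in shControl, an interval of -0.93 to 0.52, and Slc25a18 was under the filter on all arrays. For Slc25a21 no probe set carried its symbol alone, and it was not analysed here.

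Of the malate-aspartate shuttle enzymes, which work with Slc25a11 and Slc25a12, 1 of 4 rose and 0 fell. Over all tested genes, 8.75% were called higher and 7.09% lower. The cytosolic aspartate aminotransferase gene Got1 had 3112 and 3328 in shLSD1, against 2525 and 2735 in shControl, a log2 fold change of 0.29 (limma SE 0.06, adjusted p = 0.0212). This call was lost without shControl replicate 1 (limma adjusted p = 0.185), without shControl replicate 2 (limma adjusted p = 0.0728) and with no intensity trend (limma adjusted p = 0.121).

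In the group for carnitine and amino acids, 0 of 5 tested members passed, with a median of 0.08. The whole interval lay within 0.5 for all 5. Over all tested genes, 15.8% were called and 61.9% had such an interval. Slc25a20, the carnitine/acylcarnitine carrier of fatty acid oxidation, had 1308 and 1495 in shLSD1 and 1150 and 1366 in shControl, with overlapping groups (log2 fold change 0.16, SE 0.10, limma adjusted p = 0.348). Slc25a29, a carrier of basic amino acids, had 1821 and 2065 in shLSD1, against 1778 and 1696 in shControl, without overlap (log2 fold change 0.16, SE 0.08, limma adjusted p = 0.208). All 5 of its probe sets were positive, from 0.06 to 0.20. Each shares its source sequence with at least 1 other in the platform annotation, so they are not 5 separate readings. Without shLSD1 replicate 1 Slc25a29 measured 0.25 (limma adjusted p = 0.0398). The ornithine carrier gene Slc25a15 measured -0.05, the glycine carrier gene Slc25a38 -0.10 and the branched-chain amino acid carrier gene Slc25a44 0.08, all with overlapping groups, and Slc25a2 lay under the filter.

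Among nucleotide and cofactor carriers, 0 of 8 tested members passed, with a median of -0.05, where 15.8% of all tested genes were called. The pyrimidine nucleotide carriers were Slc25a33, at 347 and 417 in shLSD1 and 342 and 304 in shControl (log2 fold change 0.24, limma adjusted p = 0.291), and Slc25a36, at 1954 and 1746 in shLSD1 and 1880 and 1903 in shControl (log2 fold change -0.03, limma adjusted p = 0.788). Slc25a51, the NAD carrier, had 2262 and 1962 in shLSD1 and 2225 and 2384 in shControl, a log2 fold change of -0.13 (limma SE 0.08, adjusted p = 0.325), and its other 2 probe sets gave -0.12 and -0.10. Slc25a32, the folate carrier, was the member of this group with all shLSD1 signals below all shControl signals, at 418 and 388 in shLSD1 against 440 and 464 in shControl (log2 fold change -0.17, limma adjusted p = 0.343). Slc25a16, Slc25a17, Slc25a26 and Slc25a42 ran from -0.13 to 0.20 with overlapping groups. Slc25a26, the S-adenosylmethionine carrier, had 1 probe set at 0.20 and another at -0.34. Slc25a52 was not analysed here for the same reason.

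Of the 4 iron and glutathione carriers, all tested, 0 passed, and all 4 intervals lay within 0.5. Over all tested genes, 15.8% were called and 61.9% had an interval within 0.5. The mitoferrin of developing red cells, Slc25a37, had 1195 and 951 in shLSD1 and 1246 and 1110 in shControl (log2 fold change -0.14, SE 0.12, limma adjusted p = 0.464). The mitoferrin of other tissues, Slc25a28, had 409 and 447 in shLSD1 and 423 and 450 in shControl (log2 fold change -0.03, SE 0.11, limma adjusted p = 0.890). Both mitoferrins had overlapping groups. Slc25a40, the close relative of Slc25a39, had 688 and 693 in shLSD1, against 663 and 597 in shControl, without overlap (log2 fold change 0.13, SE 0.09, limma adjusted p = 0.370).

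Mitochondrial haem and iron-sulphur cluster synthesis use this iron. Of 11 tested genes for mitochondrial haem and iron-sulphur cluster synthesis, 1 rose and 1 fell, with a median of -0.02. Over all tested genes, 8.75% were called higher and 7.09% lower. Fech, which inserts iron into protoporphyrin to make haem, had 3197 and 3423 in shLSD1, against 2788 and 2864 in shControl. Its log2 fold change was 0.23 (SE 0.06, limma adjusted p = 0.0360). Isca1, an iron-sulphur assembly factor, had 2137 and 2183 in shLSD1, against 2593 and 3166 in shControl (log2 fold change -0.41, SE 0.09, limma adjusted p = 0.0227). The call of Fech was lost without either shControl array (limma adjusted p = 0.236 without replicate 1 and 0.160 without replicate 2), without shLSD1 replicate 2 (0.0619) and without the filter (0.0617). The call of Isca1 was lost without shControl replicate 2, at -0.26 (limma adjusted p = 0.129), and neither gene passed with no intensity trend. With the mean of all its probe sets Fech measured 0.46 (limma adjusted p = 0.305).

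The 5 tested carriers with no substrate role assigned here, Slc25a46 included, had 0 calls and ran from -0.35 to 0.40. The share called over all tested genes was 15.8%. Slc25a47 had 110 on both shLSD1 arrays, against 101 and 69.3 in shControl (log2 fold change 0.40, SE 0.27, limma adjusted p = 0.369). Slc25a53 had 44.9 and 113 in shLSD1 and 87.5 and 94.5 in shControl, the widest interval in the family, -1.36 to 0.65. Slc25a35, with an interval of -0.68 to 0.79, lay just above the filter, with 77.4 and 57.6 in shLSD1 and 61.6 and 67.2 in shControl. Slc25a45 measured -0.01, and Slc25a34 lay under the filter, at 26.5 and 38.8 in shLSD1 and 19.7 and 34.0 in shControl. Slc25a43 was not analysed here, for want of a probe set with its symbol alone.

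In all, 9 members lay under the filter (Slc25a2, Slc25a13, Slc25a18, Slc25a23, Slc25a31, Slc25a34, Slc25a41, Slc25a48 and Slc25a54), with signals from 0.93 to 79.2. The groups did not overlap for 4 of them, with Slc25a13, Slc25a23 and Slc25a31 higher in shLSD1 and Slc25a48 lower, at 4.43 and 12.4 in shLSD1 against 28.8 and 21.3 in shControl. Over all tested genes, which lie above the filter, 60.1% did not overlap. With no filter, 0 of the 9 passed the limma test and 2 had an unadjusted p under 0.05. The lowest adjusted p was 0.124, for Slc25a13. In that fit 7.23% of all 18193 genes were called. Signals this low are noisy on a log scale, so these differences are given as values only.

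Carriers reach the inner membrane through the TIM22 import route, in which small chaperones of the intermembrane space hand them to an insertion complex. Of 13 tested genes of this route, 1 fell and 0 rose, with a median of -0.06. Over all tested genes, 7.09% were called lower and 8.75% higher. The gene that fell was Timm29, a subunit of the TIM22 complex, with 701 and 698 in shLSD1 against 916 and 909 in shControl. Its log2 fold change was -0.38 (limma SE 0.08, adjusted p = 0.0150). The call was lost without shControl replicate 1 (limma adjusted p = 0.117), without shControl replicate 2 (0.107), with no intensity trend (0.0509) and with all its probe sets averaged (0.0591). Among 11 tested genes of other mitochondrial transport proteins (voltage-dependent anion channels, the pyruvate carrier, the calcium uniporter and sideroflexins), 1 fell and 0 rose, with a median of -0.03. The share of all tested genes called lower was the same 7.09%. The gene that fell was Mpc1, a pyruvate carrier subunit, at 4280 and 4085 in shLSD1 against 4843 and 4714 in shControl (log2 fold change -0.19, SE 0.05, limma adjusted p = 0.0419). It was lost without shControl replicate 1 (limma adjusted p = 0.279), without shControl replicate 2 (0.185), without shLSD1 replicate 2 (0.0547), with quantile normalization (0.0564), with no filter (0.0736), with no intensity trend (0.177) and when each gene was the mean of its probe sets (0.0671). The family relatives Mtch1 and Mtch2, outer membrane proteins, measured -0.04 (limma adjusted p = 0.671) and -0.00 (limma adjusted p = 0.992).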

How the data were processed

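RNA from 2 shLSD1 and 2 shControl samples was hybridised to 1 Affymetrix 3' expression array each, from 250 ng of total RNA per the labels' protocols. The deposited values are linear MAS5 intensity, 1 value per probe set and array. The submitters' processing notes name MAS5 and Affymetrix Expression Console, whose versions no source used here gives. In the deposited values the mean after trimming 2% at each end is 500.003 on every array. The number of arrays limits the precision.

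Signals under 1 were set to 1 before log2. Of 45101 probe sets, 34945 had a single symbol in the platform annotation, 932 had several, 9160 had none and 64 were controls. Symbols were checked by gene ID against a RefSeq table (GRCm38.p6), and 0 changed. Groups were compared with limma 3.58.1 in R 4.3.3 (lmFit, eBayes with trend = TRUE, total degrees of freedom 7.54), two-sided, with Benjamini-Hochberg adjustment over all 10879 tested genes. The method was tested on simulated data.

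Named genes were every member, Kdm1a, the called genes of 5 lists of related mitochondrial genes, the family relatives under other names and cell type markers. The members and lists were chosen with earlier results of these data known. Of 121 genes written in the lists, those without a single-symbol probe set were not used here. Replicate numbers did not pair the arrays (correlation of deviations 0.0029). Alternatives were a replicate block, leaving out each array, quantile normalization, median centring, log2 of the signal plus 32, no filter and a stricter one, no variance trend, robust variance, averaged or separate probe sets, and thresholds of 0.01 and 0.10. Promoters were RefSeq sequences. Figures were drawn with matplotlib 3.10.9.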

Additional observations from a re-analysis of the deposited data

How the results depend on the processing

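Over 35 members and all alternatives, 529 of 575 comparisons kept direction and side of the threshold, 37 changed sign, 4 lost their call with the same sign and 5 gained one (3 for Slc25a27, 1 for Slc25a29 and 1 for Slc25a39), all 4 losses being of Slc25a30, which was also not called where its sign turned, and 13 members kept both throughout. The count of 1 member higher became 2 with a replicate block, with an adjusted p under 0.10 and with the mean of probe sets above the filter (an alternative chosen after seeing the data), 0 with an adjusted p under 0.01, with no intensity trend and with all probe sets averaged, and 7 of 72 when every probe set was tested. Leaving out 1 array gave 0 to 2, with 0 without shControl replicate 1 or 2, where all calls numbered 580 and 582 in place of 1723. A lone array was assumed to vary like the other group. Calls over all genes were also 637 without the trend, 901 with the mean of probe sets and 763 and 2596 at the stricter and looser thresholds. The count of 0 lower did not move. The member median of 0.053 was 0.079 with no filter and 0.014 with the mean of all probe sets. Deviations of arrays sharing a number were close to uncorrelated over the tested genes, and the block raised all calls to 2220.

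For the related lists, the TIM22 count of 1 lower became 0 without the trend, with the mean of all probe sets and at 0.01, and 0 to 1 with an array left out. The other transport proteins (1 lower) had 2 with a replicate block, 0 with quantile normalization, no filter, no trend, the mean of all probe sets and at 0.01, and 0 to 1 with an array left out. The shuttle enzymes (1 higher, 0 lower) had 0 higher without the trend and at 0.01, 2 higher with the mean of all probe sets and with every probe set, 1 lower with the mean of all probe sets, and 0 to 1 in each direction with an array left out. The haem and iron-sulphur genes (1 higher, 1 lower) had 0 higher with no filter and with the mean of all probe sets, 3 higher with every probe set, 0 in each direction without the trend and at 0.01, and 0 to 1 higher and 0 to 2 lower with an array left out. Kdm1a ran from -2.37 to -2.15 and stayed called.

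Signs turned with the mean of all probe sets for Slc25a4 (0.018), Slc25a17 (-0.95), Slc25a26 (-0.070), Slc25a30 (-0.092), Slc25a36 (0.097), Slc25a44 (-0.026), Mtch2 (0.56) and Des (0.099). With only probe sets above the filter they turned for Slc25a4 (0.078), Slc25a26 (-0.070), Slc25a36 (0.097), Slc25a44 (-0.026), Mtch2 (0.089) and Des (0.099). Median centring turned Slc25a11 (-0.011) and Slc25a17 (-0.0074), and quantile normalization turned Mtch2 (0.0023). The averages include probe sets of other signal; for other changes the cause was not tested.

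With 1 array left out, values crossed 0 for Slc25a3 (-0.0060 to 0.089), Slc25a11 (-0.019 to 0.038), Slc25a14 (-0.086 to 0.65), Slc25a15 (-0.17 to 0.079), Slc25a16 (-0.18 to 0.057), Slc25a17 (-0.088 to 0.11), Slc25a22 (-0.71 to 0.30), Slc25a26 (-0.018 to 0.41), Slc25a28 (-0.092 to 0.034), Slc25a35 (-0.16 to 0.27), Slc25a36 (-0.12 to 0.047), Slc25a37 (-0.31 to 0.023), Slc25a38 (-0.27 to 0.071), Slc25a42 (-0.36 to 0.097), Slc25a44 (-0.0062 to 0.16), Slc25a45 (-0.11 to 0.088), Slc25a53 (-1.02 to 0.31), Ucp3 (-0.31 to 0.13), Mtch1 (-0.078 to 0.0019), Mtch2 (-0.014 to 0.012) and Sp7 (-0.80 to 0.088). None of these was called in the comparison as reported.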
